A study of Homo sapiens with 10 samples.

Results

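Feedback regulators and direct targets of the Wnt pathway were followed through 5 ChIP-seq peak lists. The cells are HCT116, a human colorectal cancer cell line that carries a mutant beta-catenin. The genes are AXIN2, LGR5, ASCL2, NKD1, RNF43, ZNRF3, SP5, NOTUM, LEF1 and TCF7, taken by name from the GENCODE annotation of hg19, and they are 10 of the 20136 protein-coding gene symbols examined. The 5 libraries were made with antibodies to total Pol II (RNA polymerase II, by the antibody N-20), KAP1, Larp7, Hexim1 and Cdk9, with 1 library each. All came from the same untreated line in standard serum medium, fixed with 1% formaldehyde for 10 min, so there is neither a treated group nor a control without mutant beta-catenin. The series asked where KAP1, the 7SK ribonucleoprotein and Pol II meet at human genes. Its other 5 libraries (Pol II with phosphorylated serine 5, 3 histone marks and input DNA) were not analysed here. The number attached to each peak below is the authors' deposited fold, a ratio of the peak over its background, which ranks peaks within a list and not between lists.

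In the canonical Wnt pathway a ligand engages Frizzled and LRP receptors, the complex that degrades beta-catenin is switched off, and beta-catenin enters the nucleus and joins DNA-bound TCF/LEF factors. Many genes switched on this way encode brakes on the pathway. NOTUM is a secreted enzyme that removes the lipid from Wnt ligands. ZNRF3 and RNF43 are membrane E3 ligases that clear Frizzled from the cell surface, and LGR5, a marker of intestinal stem cells, is a receptor for the R-spondins that counteract them. AXIN2 is a scaffold of the degradation complex, and NKD1 binds Dishevelled in the cytoplasm. LEF1 and TCF7 are TCF/LEF factors themselves, SP5 is a zinc finger repressor, and ASCL2 is a basic helix-loop-helix factor of intestinal stem cells. Of the proteins profiled, Cdk9 is the kinase of P-TEFb, which releases paused Pol II, Hexim1 and Larp7 belong to the 7SK ribonucleoprotein that holds P-TEFb inactive, and KAP1 (TRIM28) is a chromatin-bound co-regulator.

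TCF/LEF factors bind a short core, and the letters CTTTGAT and CTTTGAA were searched on both strands. A match is only a letter match. The sequences below are the hg19 cores of AXIN2, because its 5′ end held more of them than that of any other of the 10 genes. Each is 29 bases, read 5′ to 3′ on the strand that spells the core, with the core in capitals. The position is that of the middle base of the core, counted along the gene from the annotated 5′ end.
AXIN2 at 77, chr17:63557675-63557703, minus strand: agccggctgcgCTTTGATaaggtcctggc
AXIN2 at 235, chr17:63557517-63557545, plus strand: aggggggctttCTTTGAAgcggctccgct
AXIN2 at 446, chr17:63557306-63557334, minus strand: tcggctcgcgcCTTTGAAgtgcacagtta
AXIN2 at 865, chr17:63556887-63556915, minus strand: cggaccgcgcgCTTTGATgtgcggggcgg
AXIN2 at 885, chr17:63556867-63556895, minus strand: gcggggcggccCTTTGAAgttggcaggcc
All 5 lie inside 1 KAP1 peak, 2328 bp wide, at chr17:63555915-63558242.

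Cores next to the 5′ ends of NKD1, NOTUM and TCF7 are shown because they too lie inside peaks of all 5 factors, and the ZNRF3 core because it lies inside peaks of all 5 within the gene, outside its annotated exons.
NKD1 at −81, chr16:50582212-50582240, plus strand: accagccttgcCTTTGATgcgccgcaccg
NOTUM at −54, chr17:79919756-79919784, minus strand: gtccgccgccgCTTTGATcccggggggcc
TCF7 at 19, chr5:133450377-133450405, plus strand: gccggcggcgcCTTTGATgttccgacccg
ZNRF3 at 839, chr22:29280385-29280413, plus strand: ttgaatgccaaCTTTGAAaagacaagtga
The stretches upstream of SP5 and RNF43 are printed because the former holds 3 cores within 250 bases of a 5′ end with all 5 factors, and the latter belongs to the only 5′ end of the 10 without any factor. For SP5 it is the 250 bases up to the annotated 5′ end, chr2:171571597-171571846 on the plus strand, from RefSeq (GRCh38.p14) and found once in hg19 by exact match, with 3 cores in capitals (TTCAAAG is CTTTGAA read on the other strand).
SP5: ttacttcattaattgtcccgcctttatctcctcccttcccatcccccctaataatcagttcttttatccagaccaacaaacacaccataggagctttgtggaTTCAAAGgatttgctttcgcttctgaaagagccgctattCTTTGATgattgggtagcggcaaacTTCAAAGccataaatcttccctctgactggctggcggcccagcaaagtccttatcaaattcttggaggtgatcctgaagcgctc
For RNF43 it is the 189 bases just before the annotated 5′ end, also from RefSeq (GRCh38.p14) and found once in hg19, with its 4 CpG dinucleotides in capitals and no core.
RNF43: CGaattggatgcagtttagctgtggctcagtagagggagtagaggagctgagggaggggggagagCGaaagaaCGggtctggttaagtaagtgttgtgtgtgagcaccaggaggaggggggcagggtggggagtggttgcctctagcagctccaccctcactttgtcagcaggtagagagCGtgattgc
Over the 250 bases before the start in 21579 RefSeq promoter entries of coding genes, the median number of CpG was 17 and 4.88% held a core. The 250 bases of the first RNF43 entry also had 4 CpG, those of SP5 6, of LEF1 8 and of the first TCF7 entry 22.

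The lists held 92939 Pol II, 61312 KAP1, 184243 Larp7, 229679 Hexim1 and 120113 Cdk9 peaks, and read depth is unknown. The labels call the cells endothelial. Pol II was listed at the starts of 12 of 14 colon epithelium markers, with a median fold of 77.7 and none at KRT20 and VIL1. It was listed at 7 of 13 endothelial markers, with a median of 10.5, a range from 5.27 at ROBO4 to 92.4 at ESAM, and none at CDH5, KDR, TEK, VWF, EMCN and MMRN1. Over all coding genes the share with Pol II at a start was 77.2%, near the epithelial count, and peak lists do not name a cell type. With 1 library per antibody no difference below has a replicate check, and no p-value is given.

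Every gene but RNF43 had all 5 factors around its annotated 5′ end. Within 1 kb of any annotated transcript start, Pol II was listed at 10 of the 10 genes (77.2% of coding genes), KAP1 at 9 (72.3%), Larp7 at 10 (82.1%), Hexim1 at 10 (84.6%) and Cdk9 at 9 (77.0%). All 5 factors were listed at 9 genes, against 68.0% of coding genes, so most coding genes share this state and presence alone does not set the 10 genes apart. At the annotated 5′ end alone each factor was at 9 genes, where the coding shares were 70.5% (Pol II), 64.6% (KAP1), 75.1% (Larp7), 78.7% (Hexim1), 69.1% (Cdk9) and 59.7% (all 5). The 10 genes have 76 distinct annotated starts, which merge into 23 separate start regions (a median of 2.5 per gene, and 2 over coding genes). All 5 factors were at 11 of these regions and none at 6, so the alternative starts inside these genes were mostly without the full set. No share over the start regions of coding genes is given, so these counts do not set the 10 genes apart. The start region of TCF7 at 8.94 kb had Hexim1 (5.36) and Cdk9 (3.42), and the one from 23.2 kb had Pol II (7.84), Larp7 (3.98) and Hexim1 (4.43). The LEF1 region at 90.6 kb had Larp7 (3.14), Hexim1 (3.22) and Cdk9 (2.90), and the LGR5 region at 131 kb had Larp7 alone (3.39).

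**Figure D1:**
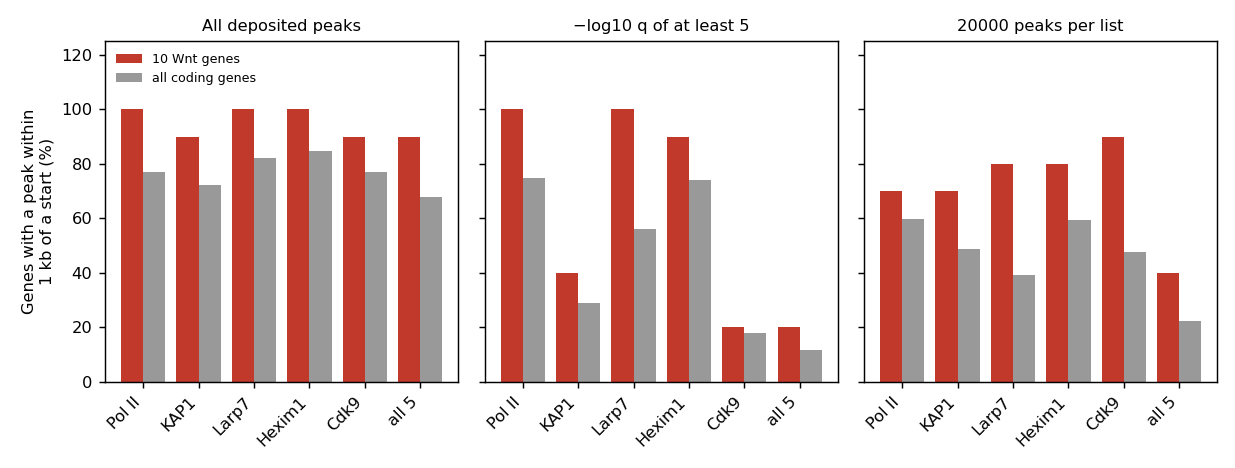
Share of genes with a peak within 1 kb of an annotated start (vertical axis, %), for each factor and for all 5 together, in the 10 Wnt genes (red) and in 20136 coding genes (grey). The left panel uses all deposited peaks, the middle panel peaks that reach a −log10 q of 5, the right panel the top 20000 peaks per list by −log10 p; all 5 factors are at 9, 2 and 4 of the 10 genes.

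The folds at these starts were set against those of coding genes within each list. The median Pol II fold over the genes was 29.8, against 41.4 over coding genes with Pol II at a start. The KAP1 medians were 4.96 and 4.91, those of Larp7 5.33 and 4.99, those of Hexim1 7.24 and 7.12, and those of Cdk9 5.21 and 4.66. Thus only Pol II had a lower median in the Wnt genes, and the margin for KAP1 and Hexim1 was small beside their own ranges of 4.17 to 5.90 and 2.89 to 10.2. The spread between the genes was wide for Pol II, whose lowest fold was 5.80 at LEF1 and whose highest was 81.7 at ZNRF3. Over the 9 genes with all 5 factors, the order of KAP1 folds ran with that of Hexim1 (Spearman 0.92) more than with that of Pol II (0.28). Over 13692 coding genes with all 5 factors these values were 0.44 and 0.34. The 0.92 was the highest of all pairs of factors. In the 9 genes KAP1 gave 0.73 with Cdk9 but 0.08 with Larp7, and Larp7 gave 0.03 with Hexim1. Over coding genes those 3 values were 0.46, 0.39 and 0.33. These correlations describe genes within single libraries, where the lists share the same DNA and cells, and carry no p-value.

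**Figure D2:**
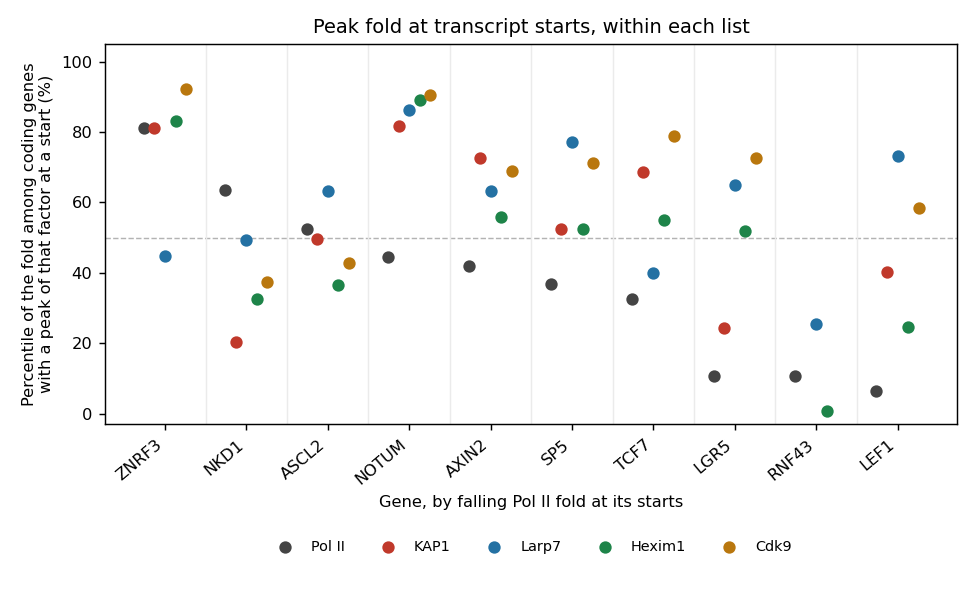
For each gene (horizontal axis, by falling Pol II fold) and factor (colour), the percentile of its highest fold at a start among coding genes with a peak of that factor at a start (vertical axis, %); the dashed line marks the median. ZNRF3 and NOTUM each have 4 factors above 80%, while the Pol II points of LGR5, RNF43 and LEF1 are at 10.8% or below.

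Among the genes that act at the cell surface, ZNRF3 and NOTUM had the highest folds for Pol II, KAP1, Hexim1 and Cdk9. At the ZNRF3 5′ end (chr22:29279560-29453476, plus strand) Pol II had a fold of 81.7, KAP1 5.87, Larp7 4.85, Hexim1 9.41 and Cdk9 6.15. The Cdk9 fold was at percentile 92.1 of coding genes with Cdk9 at a start, the highest of the 10 genes, and Larp7, at 44.8, was the only factor below the median there. At NOTUM (chr17:79910383-79919716, minus strand) the folds were 35.4, 5.90, 6.13, 10.2 and 6.03 in the same order. NOTUM thus had the highest KAP1, Larp7 and Hexim1 folds of the 10, with Pol II at percentile 44.5. The 2 other annotated start regions of ZNRF3, 33.8 and 103 kb into the gene, had no peak of any factor.

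LGR5 and RNF43 had the weakest Pol II peaks of this group. At the LGR5 5′ end (chr12:71833578-71980090, plus strand) Pol II had a fold of 6.69, at percentile 10.8, and KAP1 4.28, at percentile 24.4. Larp7 (5.38), Hexim1 (7.23) and Cdk9 (5.25) were at percentiles 65.1, 52.0 and 72.6, so the stem cell receptor gene carried mid-range 7SK and Cdk9 peaks over a low Pol II peak. The annotated gene TSPAN8 overlaps this start, and the lists have no strand. RNF43 (chr17:56431037-56494956, minus strand) had no peak of any factor within 1 kb of its annotated 5′ end. The only factor in its 5′ start region was Hexim1, with a fold of 2.89 at chr17:56492804-56492975, next to a later start of the same region. Its Pol II start peak, fold 6.65, and its Larp7 start peak, fold 4.25, reach into the window of a retained-intron transcript that begins 54.0 kb into the gene. The Pol II summit lies 1067 bp from that start, and TSPOAP1-AS1 and ENSG00000285897 overlap it.

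Of the cytoplasmic regulators, AXIN2 (chr17:63524681-63557766, minus strand) had a Pol II fold of 32.7 in its 5′ start region. KAP1 was at 5.53 there, Larp7 at 5.23, Hexim1 at 7.44 and Cdk9 at 5.14, all but Pol II above the median of coding genes. Its strongest Pol II peak had its summit 27 bp from an annotated start that lies 1352 bp into the gene. A second AXIN2 start region, 25.0 kb into the gene and annotated as a retained-intron transcript, also had all 5 factors. Pol II had a fold of 12.6 there, KAP1 4.15 and Larp7 5.34, the highest Larp7 fold at an AXIN2 start. No start of another gene is annotated at either region. The gene ENSG00000266076 overlaps the first, and the KAP1, Larp7, Hexim1 and Cdk9 peaks of the second region reach into it. NKD1 (chr16:50582307-50683160, plus strand) combined the second highest Pol II fold of the 10, 56.9, with the lowest KAP1 fold, 4.17. Its Hexim1 fold of 6.17 and Cdk9 fold of 4.37 were at percentiles 32.7 and 37.5, where ZNRF3 was at 83.1 and 92.1. In both genes Pol II was above the median of coding genes and Larp7 below it. A retained-intron start of NKD1, 76.8 kb into the gene, also had all 5 factors, with Pol II at 5.85 and KAP1 at 3.55.

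The 4 transcription factor genes were more alike in KAP1, at percentiles 40.1 to 68.6, than in Pol II, at percentiles 6.60 to 52.3. ASCL2 (chr11:2289728-2291818, minus strand) had a Pol II fold of 44.3 and a KAP1 fold of 4.90, with a Pol II summit 1410 bp past the 5′ end of a gene only 2.09 kb long. TCF7 (chr5:133450372-133487556, plus strand) had 22.5 and 5.39, and LEF1 (chr4:108968701-109090112, minus strand) had 5.80 and 4.68. LEF1 thus had the lowest Pol II fold of the 10 genes, at percentile 6.60, beside a Larp7 fold of 5.63 at percentile 73.3. The strongest LEF1 start peak of each factor also lies within 1 kb of a start of the antisense gene LEF1-AS1, which had Pol II folds of 4.75 to 6.33 in its own part upstream. SP5 (chr2:171571847-171574588, plus strand) had a Pol II fold of 26.9 and a KAP1 fold of 4.96, but those peaks are centred −1.07 and −1.06 kb from its 5′ end, at the starts of the non-coding gene LINC01124. The Pol II peak over the SP5 5′ end itself had a fold of 13.6, and without strand the transcription of the pair cannot be told apart.

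**Figure D3:**
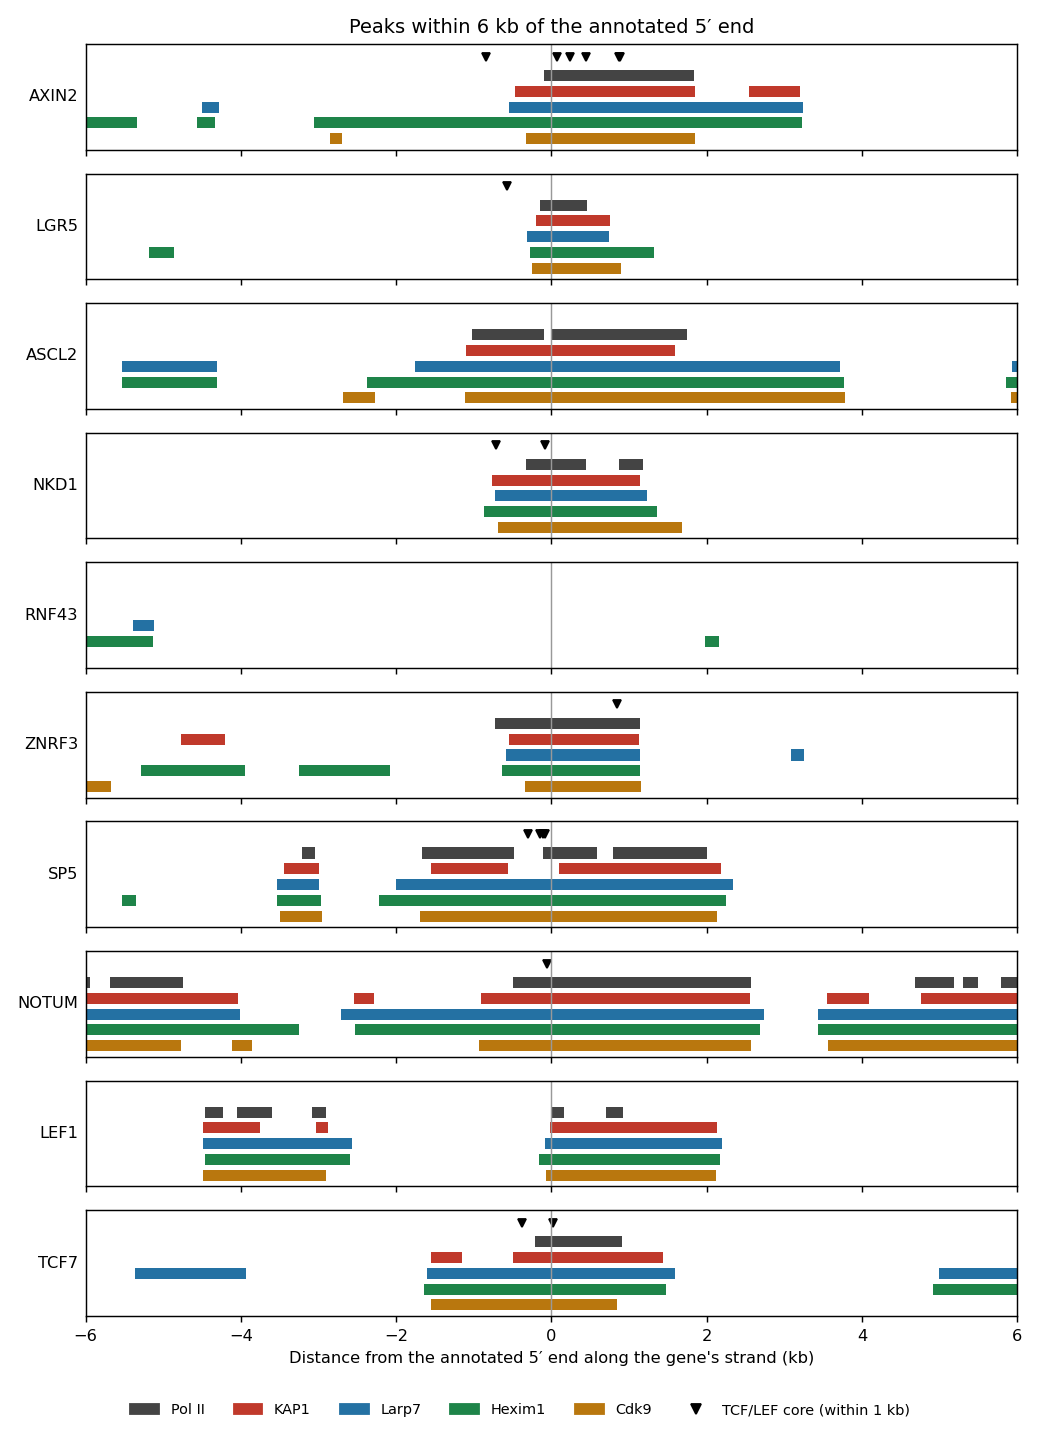
Deposited peaks of the 5 factors (coloured bars) within 6 kb of the annotated 5′ end of each gene, with distance along the gene's strand in kb on the horizontal axis and TCF/LEF cores within 1 kb as triangles. Wide KAP1, Larp7, Hexim1 and Cdk9 bars cross or adjoin the 5′ end of every gene but RNF43, and the SP5 cores fall between 2 KAP1 bars.

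The peaks at these 5′ ends were wide. The widest KAP1 peak at a start was 2328 bp at AXIN2, 2694 bp at ASCL2, 3465 bp at NOTUM, 2154 bp at LEF1, 2087 bp at SP5, 1924 bp at TCF7, 1911 bp at NKD1, 1669 bp at ZNRF3 and 947 bp at LGR5. All 9 exceeded the median of coding genes with KAP1 at a start, 896 bp. Hexim1 reached 6291 bp at AXIN2 and 6140 bp at ASCL2 (median 1537 bp), Larp7 5472 bp at ASCL2 (1291 bp) and Cdk9 4900 bp at ASCL2 (1004 bp). Pol II was wider than its median of 830 bp at 6 of 10 genes, with 3056 bp at NOTUM but 222 bp at LEF1 and 197 bp at RNF43. KAP1 peaks covered on average 75.0% of the bases within 1 kb of the 5′ end in the 9 genes with all 5 factors. In the 13692 coding genes with all 5 at any start the mean was 38.7%. Only 12021 coding genes had all 5 at the 5′ end itself, as the 9 did. Some of the 13692 thus lacked the full set in this window. The Larp7 means were 83.3% and 52.2%, the Hexim1 means 88.6% and 60.0%, the Cdk9 means 79.6% and 43.4%, and the Pol II means 59.3% and 42.7%. The widest start peaks of KAP1, Larp7, Hexim1 and Cdk9 exceeded the coding median at all 9 genes, except Larp7 at LGR5, with 1053 bp. At these 9 genes the summit of the strongest Pol II start peak was covered by peaks of all 4 other factors, and at RNF43 by Larp7 alone. The 9 genes were taken for having all 5 factors at a start, and no share over coding genes is given. This coverage therefore does not set them apart.

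The TCF/LEF cores were placed against these peaks. Within 1 kb of the annotated 5′ end AXIN2 held 6 cores, SP5 4, NKD1 and TCF7 2 each, and LGR5, ZNRF3 and NOTUM 1 each, while ASCL2, LEF1 and RNF43 held none. At least 1 core was thus present at 7 of the 10 genes, against 38.4% of coding genes, and at least 2 at 4 genes, against 10.8%. Over all coding genes, these included, 8 (0.0397%) held 6 or more and 100 (0.497%) held 4 or more. The mean was 1.7 per gene, 1.22 without AXIN2, and 0.524 over coding genes. Several of these genes are textbook TCF/LEF targets and were named for that, so their content of cores is a description.

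**Figure D4:**
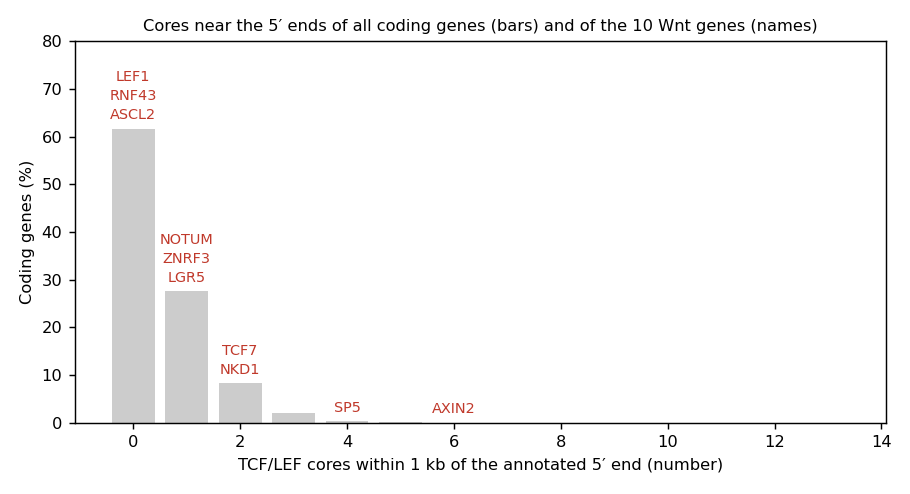
Number of TCF/LEF cores within 1 kb of the annotated 5′ end (horizontal axis) and the share of 20136 coding genes with that number (bars, vertical axis in %); the 10 Wnt genes are written in red above the bar for their own number. AXIN2 stands at 6 and SP5 at 4, where the bars are 0.0199% and 0.368%, and ASCL2, RNF43 and LEF1 stand at 0.

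Of the 17 cores at these genes, 11 lay inside a Pol II peak, 11 inside KAP1, 15 inside Larp7, 16 inside Hexim1 and 14 inside Cdk9. Peaks of all 5 factors held 9 of the 17, and no coding share is given for this count. Without AXIN2 the counts were 6, 6, 10, 10 and 9 of 11 cores. Around the 5′ ends of coding genes with all 5 factors at any start there were 5728 cores. Of these, 16.8% were inside a Pol II peak, 14.1% inside KAP1, 24.1% inside Larp7, 31.9% inside Hexim1 and 17.8% inside Cdk9. Some of those coding genes lacked the full set at the 5′ end, unlike the Wnt genes that hold the 17 cores. The cores of the Wnt genes were therefore more often under peaks, at genes whose peaks were also wider. Pol II peaks held 64.7% of the 17 cores, KAP1 64.7%, Larp7 88.2%, Hexim1 94.1% and Cdk9 82.4%. In the same order, peaks covered 59.3%, 75.0%, 83.3%, 88.6% and 79.6% of the window bases at the 9 genes with all 5 factors. For KAP1 the share of cores was thus below the share of bases. The parts of peak width and of this choice of coding genes were not tested. The 5 AXIN2 cores printed above fell in peaks of all 5 factors, and the remaining core, at −840, fell in Hexim1 alone. The single LGR5 core, at −578, fell outside all peaks.

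SP5 was the exception among the core-rich genes. Its 4 cores, at −299, −145, −106 and −81, lay in the gap between 2 KAP1 peaks, chr2:171570294-171571284 and chr2:171571945-171574031. Larp7, Hexim1 and Cdk9 peaks ran across this gap and covered all 4, and Pol II covered those at −106 and −81. A further KAP1 peak of 452 bp at −3.22 kb, chr2:171568398-171568849, held 2 more cores. Of 4715 KAP1 peaks of like width (within 10%), itself included, 0.170% held as many. That site carried all 5 factors, with Pol II at a fold of 5.04, KAP1 at 3.44, Larp7 at 5.93, Hexim1 at 7.02 and Cdk9 at 4.23. Its cores are shown as the only ones of the 10 genes found in a pair within a distal KAP1 peak under 500 bp wide.
SP5 at −3138, chr2:171568695-171568723, plus strand: aacggatacctCTTTGAActgacccccgc
SP5 at −3030, chr2:171568803-171568831, plus strand: gcgcgctcggtCTTTGATgtctctttaca

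Over whole KAP1 peaks, the 13 peaks at the starts of the 10 genes held 12 cores, or 0.510 per kb, and 0.325 per kb without AXIN2. The 20232 KAP1 peaks at coding starts held 0.0861 per kb. The 12 cores fell in 6 of the 13 peaks, at 5 genes, while 7.93% of the KAP1 peaks at coding starts held a core. Wider peaks held one more often. Among KAP1 peaks of like width to each of the 13, that share ran from 6.19% to 26.0%. The AXIN2 peak of 2328 bp held 5, and of the 1217 KAP1 peaks of like width (within 10%), itself included, no other held as many. In the 300 bp around the middle of each KAP1 peak in or within 50 kb of the genes, 9 of 103 peaks held a core (8.74%, exact 95% binomial interval 4.07 to 15.9), against 3.34% of all 61312 KAP1 peaks. Among the peaks more than 1 kb from every annotated start, 5 of 54 held a core (9.26%, interval 3.08 to 20.3). The share of all such KAP1 peaks was 3.76%, inside that interval. Both intervals cover counting error only.

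Away from their starts the genes differed widely in their number of peaks. Along the body, outside 1 kb of its own starts, Pol II was listed in 6 of the 10 genes (49.9% of coding genes), KAP1 in 6 (42.1%), Larp7 in 8 (69.4%), Hexim1 in 8 (72.4%) and Cdk9 in 6 (62.2%), all near the coding share. ASCL2 and SP5, which are under 3 kb long, had no body peak of any factor. TCF7 had 10 Pol II body peaks, or 2.69 per 10 kb, and NOTUM had 5 in 9.33 kb. ZNRF3 had 9 and NKD1 5, or 0.517 and 0.496 per 10 kb. In 9513 coding genes of at least 30 kb the median was 0.0954 per 10 kb, so TCF7, RNF43, ZNRF3, NKD1 and AXIN2 were above it, while LEF1 and LGR5, at 121 and 147 kb, had no Pol II body peak at all.

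The body of NKD1 had the most KAP1 peaks of the 10 genes, 9, beside 18 Larp7, 20 Hexim1 and 13 Cdk9 peaks. Its 4 body sites with all 5 factors that lie away from every annotated start were at 26.2, 50.2, 62.9 and 85.2 kb. The last, chr16:50667332-50667656 in an exon, had a KAP1 fold of 6.20, higher than that of the NKD1 5′ end, with Pol II at 10.5, Larp7 at 8.37, Hexim1 at 6.33 and Cdk9 at 4.64. ZNRF3 had 24 Hexim1 and 10 Larp7 body peaks but 2 KAP1 peaks. One of these, with a Pol II fold of 30.0, lies at the start of the antisense gene ZNRF3-AS1, and the other, chr22:29445246-29446951 in a ZNRF3 exon, had Pol II at 12.5. In LGR5 the whole body held 1 KAP1, 2 Larp7 and 1 Hexim1 peak.

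RNF43 had 7 Pol II body peaks, and 6 of them lay between 56.7 and 63.7 kb from its 5′ end, towards its 3′ end. That end adjoins SUPT4H1, whose start had a Pol II fold of 119, and the 3′ part is also covered by TSPOAP1-AS1 and ENSG00000285897. The 2 KAP1 body peaks of RNF43 lay there as well, at 56.7 kb (fold 4.84) and at 58.9 kb (fold 3.77), the latter with all 5 factors. Which of the overlapping genes these peaks belong to cannot be told apart without strand.

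**Figure D5:**
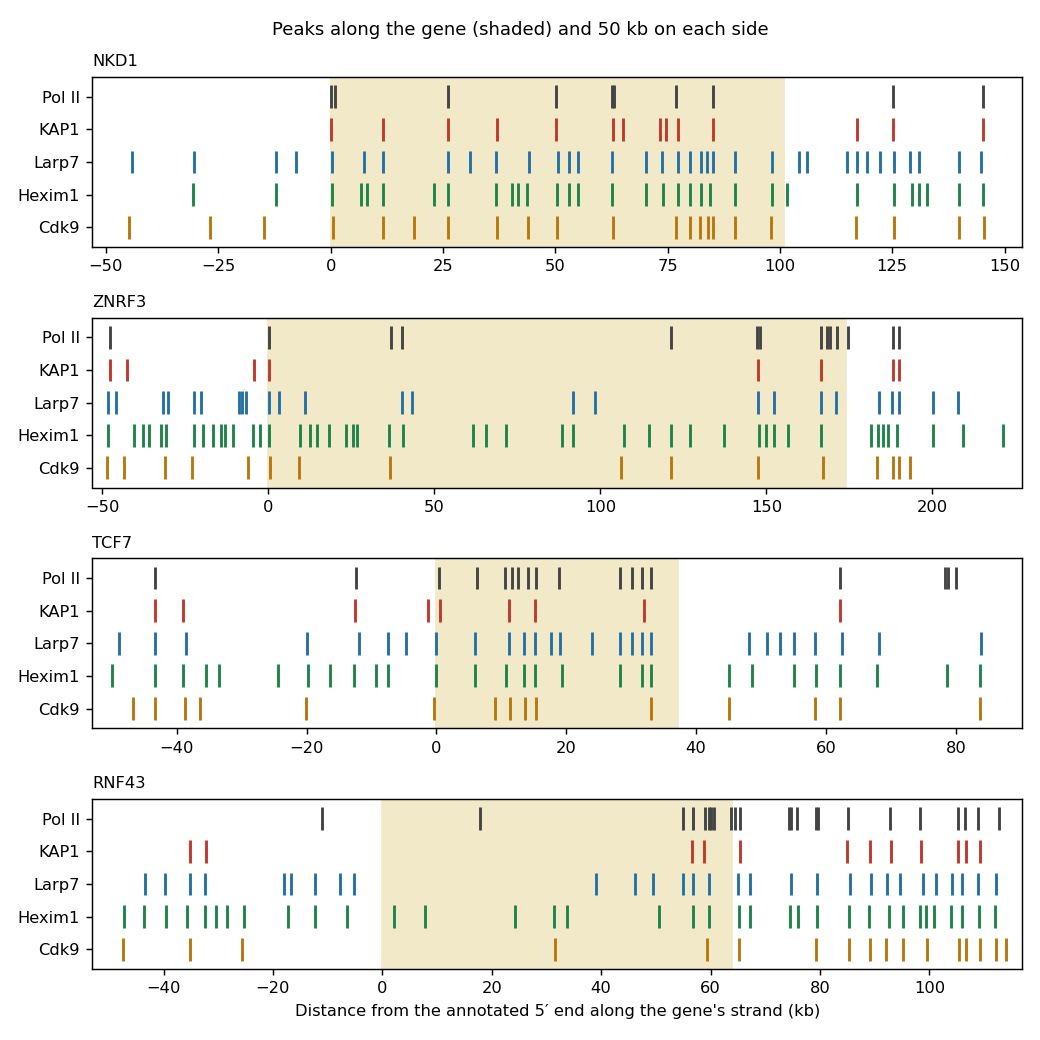
Middles of the deposited peaks (ticks, 1 row per factor) along NKD1, ZNRF3, TCF7 and RNF43 (shaded) and 50 kb on each side, by distance from the annotated 5′ end along the gene's strand (kb). NKD1 and TCF7 carry ticks of all 5 factors through the body, and the RNF43 ticks of Pol II and KAP1 gather at its 3′ end.

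Within 50 kb outside the gene, Pol II was listed at 9 genes (82.5% of coding genes), KAP1 at 9 (82.5%), Larp7 at 10 (96.1%), Hexim1 at 10 (97.0%) and Cdk9 at 9 (93.3%). NOTUM, in a gene-dense stretch, had 57 Pol II peaks in this flank, of which 37 were at starts of other genes, while AXIN2 had none beside 17 Larp7 and 27 Hexim1 peaks. In all, 54 of the 103 KAP1 peaks at the 10 loci were distal, more than 1 kb from every annotated start of any gene. Pol II overlapped 24 of the 54 (44.4%, exact interval 30.9 to 58.6), against 49.8% of all 36337 distal KAP1 peaks, a difference within counting error. Larp7 overlapped 90.7% of the 54 and 86.4% of all, Hexim1 96.3% and 89.3%, and Cdk9 68.5% and 67.2%.

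All 5 factors met at 20 distal sites, in 7 of the 10 loci, and 53.2% of coding genes had such a site. NOTUM had 7, NKD1 5, TCF7 3, ZNRF3 2, and ASCL2, RNF43 and SP5 1 each, while AXIN2, LGR5 and LEF1 had none. This is 11.8 sites per Mb, or 8.22 without the NOTUM locus, where the genome has 5.24 and the median coding locus 4.00. As a share of distal KAP1 peaks the order was the other way, since 37.0% of the 54 carried all 5 factors (exact interval 24.3 to 51.3), against 44.6% of all distal KAP1 peaks, a value inside that interval. The Pol II fold at these sites ran up to 34.1, at chr22:29467364-29467833 between ZNRF3 and KREMEN1, itself the gene of a receptor for DKK inhibitors. Inside TCF7 the site chr5:133461034-133462044, in an intron 11.2 kb from the 5′ end, had Pol II at 14.6, KAP1 at 4.59, Larp7 at 5.16, Hexim1 at 5.36 and Cdk9 at 3.31. ASCL2 had the most distal KAP1 peaks after NOTUM, 10, of which 1 overlapped Pol II, in an intron of TSPAN32 at −40.8 kb. Close to the TCF7 5′ end, a 401 bp KAP1 peak with a fold of 5.22 and no Pol II held a core.
TCF7 at −1278, chr5:133449080-133449108, plus strand: atggcctagctCTTTGATccacagccagc

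The other genes of the pathway were described from 6 lists with 88 genes. All 5 factors were at the starts of 21 of 24 ligand and secretion genes, 12 of 12 receptor genes, 9 of 10 genes of extracellular and membrane inhibitors (with KREMEN1, KREMEN2 and APCDD1, which encode membrane proteins), 16 of 16 genes of the cytoplasmic chain, 12 of 12 of the nuclear chain and 13 of 14 other targets, beside the 68.0% of coding genes. The lists differed in Pol II, with median folds of 6.85 for these inhibitors, 18.2 for ligands and secretion, 25.0 for receptors, 43.4 for other targets, 64.0 for the nuclear chain and 69.1 for the cytoplasmic chain. The 29.8 of the 10 feedback and target genes falls between the receptors and the other targets. KAP1 medians ran from 4.69 for receptors to 5.48 for the cytoplasmic chain. KAP1 folds have a narrower scale than Pol II folds, so the 2 spreads do not compare. Among the 10 genes, KAP1 folds of 4.68 at LEF1 and 5.53 at AXIN2 were at percentiles 40.1 and 72.6. Genes without Pol II at a start were the ligand genes WNT8A and WNT8B, the inhibitor gene DKK2, and MMP7, a matrix protease gene.

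The KAP1 fold of NOTUM, the highest of the 10 genes, was exceeded at 14 of the 88 genes. The 2 highest KAP1 folds of each list are given as a description. In the cytoplasmic chain they were 9.40 at GSK3A, the gene of a kinase of the degradation complex, and 7.70 at TNKS2, a tankyrase gene. In the nuclear chain they were 8.84 at TCF7L2 and 6.07 at CTNNBIP1, the genes of a TCF factor and of a beta-catenin inhibitor. Among the ligands, WNT16 had 7.88 and WNT3 6.19. The receptor genes LRP5 and FZD9 had 5.88 and 5.86, and the inhibitor genes WIF1 and KREMEN1 6.28 and 5.71. EPHB2 had 7.26 and SOX9 6.64 among other targets. TCF7L2 had a Pol II fold of 56.5, against 22.5 at TCF7 and 5.80 at LEF1.

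For each of the 9 genes with all 5 factors, the coding gene nearest in the 5 fold percentiles was found, as the smallest sum of absolute differences over the 5 libraries. The closest match was CCDC142 for NOTUM, with a sum of 7.51 percentile points, and HACD2 for ZNRF3, with 10.2. The others were FAT3 for LEF1 (12.0), ENG for SP5 (13.1), C1orf109 for AXIN2 (13.7), TASOR2 for NKD1 (15.9), NDNF for LGR5 (16.4), RFTN1 for TCF7 (20.8) and HMOX2 for ASCL2 (21.4). The median sum over all such coding genes lay between 122 and 160. None of the 9 nearest genes belongs to the Wnt lists used here. Of the 13692 coding genes with all 5 factors only 83 are on those lists, so this absence says nothing about likeness between Wnt genes.

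The set of 5 factors at a start depended on the threshold. When a peak had to reach a −log10 q of 5, KAP1 was left at 4 genes, AXIN2, ZNRF3, NOTUM and TCF7 (29.0% of coding genes), and Cdk9 at 2, ZNRF3 and NOTUM (18.1%). Pol II and Larp7 were left at 10 (74.8% and 56.1%) and Hexim1 at 9 (74.2%). All 5 factors were then at ZNRF3 and NOTUM, against 11.6% of coding genes. With each list reduced to its top 20000 peaks by −log10 p, all 5 factors were at 4 genes, AXIN2, ASCL2, SP5 and NOTUM (22.2%). In that setting Pol II was at 7 genes (59.7%), KAP1 at 7 (48.8%), Larp7 at 8 (39.1%), Hexim1 at 8 (59.6%) and Cdk9 at 9 (47.7%). NOTUM was thus the only gene of the 10 to keep all 5 factors under both settings.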

How the data were processed

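Reads of the HCT116 ChIP libraries were mapped to hg19 by Bowtie 1.1, and MACS2 (no version named) called the peaks, per the submitters' processing notes. The sources used here do not give the control, the handling of duplicates or the depth. The authors' deposited lists, 1 per library, give a fold (ratio), a −log10 p, a −log10 q and a score per peak, with Pol II in the narrow and the other factors in the broad layout. The score was not used. Only peaks on nuclear chromosomes were used, which left out 2 Cdk9 peaks. Genes and starts are those of GENCODE release 44 on GRCh37. A factor was counted at a start when a peak overlapped the 1 kb on either side by at least 1 bp; body peaks overlap the gene outside these windows, and flank peaks lie within 50 kb. Percentiles are shares of coding genes with that factor at a start that had a lower fold. Exact binomial intervals (Clopper-Pearson, 95%) cover counting error only. With 1 library per antibody no test was made. Python 3.11.15, pandas 2.3.3, scipy 1.17.1 and pysam 0.24.0 were used, and the counting was tested on simulated peaks. The 10 genes, the gene lists and the settings were chosen with earlier results of these data known. Genes named are the 10 members, the 2 of highest KAP1 fold of each of 6 other Wnt lists, and the nearest coding gene of each member with all 5 factors; neighbouring genes, markers and the Wnt genes without Pol II were named after their values were seen. PECAM1 was not matched. RefSeq promoter entries (GRCh38.p14) matched RNF43, SP5, LEF1 and TCF7.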

Additional observations from a re-analysis of the deposited data

How the results depend on the processing

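Of 54 comparisons of 9 results with another setting, 43 stayed within 1.5 times the value, or within its interval for a share, and 11 moved. At a −log10 q of at least 5 the genes with KAP1 at a start numbered 4, those with Cdk9 2 and those with all 5 factors 2. At the 10 loci there were then 0 distal sites with all 5, and 0% of the KAP1 peaks left there held a core in their middle. With 20000 peaks per list 4 genes had all 5 factors, 1 distal site had all 5, and 27.3% of the distal KAP1 peaks at the 10 loci carried Pol II. For the 0% and the 27.3%, no share over all KAP1 peaks in the same setting is given. Distal sites with all 5 numbered 12 with flanks of 10 kb, 39 with flanks of 100 kb and 13 without the NOTUM locus; the last setting, and those without AXIN2, were chosen after seeing the data. Fewer peaks or another length of genome enter by construction in these settings, and no other cause was tested. No paired analysis was possible because each antibody has 1 library. Read depth is unknown, so an unlisted factor was not detected at this depth. A peak shows neither strand nor transcription, and antisense or neighbouring genes share peaks with AXIN2, LGR5, NKD1, RNF43, ZNRF3, SP5, NOTUM and LEF1.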
